A study of Mus musculus with 6 samples.

Results

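The 10 genes described here encode 3 Toll-like receptors (*Tlr2*, *Tlr3* and *Tlr4*), 4 subunits of the transcription factor NF-κB (*Rela*, *Relb*, *Nfkb1* and *Nfkb2*) and 3 regulators that act on NF-κB or on the signal that reaches it (*Nfkbia*, *Nfkbiz* and *Tnfaip3*). They were chosen by gene symbol, with earlier results of these data known. Each was found in 1 row of the deposited table of 25140 genes. RNA-seq had been performed on primary cardiac fibroblasts of C57BL/6 mice at passage 1, as 3 libraries of cells given vehicle and 3 of cells given 10 ng/ml TGFβ for 24 h, and the study describes them as biological replicates. The labels name no engineered allele, and all cells were held in 1% FBS, from 16 h before treatment by the labels and 24 h by the methods. The labels give the adult heart as the source, whereas the text of the study's results calls the cells embryonic fibroblasts (MEFs). How many animals gave the cells is not given in the sources used here.

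Toll-like receptors sense molecules of microbes and of damaged tissue: Tlr2 and Tlr4 sit at the cell surface and respond to bacterial lipoproteins and lipopolysaccharide, whereas Tlr3 sits in endosomes and binds double-stranded RNA. Through the adaptors MyD88 and TRIF they activate a kinase complex that marks the inhibitor IκBα for degradation, and NF-κB dimers then enter the nucleus and switch on chemokine, cytokine and adhesion genes. Among the genes that NF-κB switches on are those of its own inhibitors, so that transcripts of *Nfkbia* and *Tnfaip3* are commonly read as a sign of how active the pathway is. Cardiac fibroblasts express these receptors and take part in the inflammatory phase that follows injury of the heart.

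Counts per gene were scaled to CPM, that is to a common library size after TMM factors, and TGFβ was compared with vehicle by edgeR's quasi-likelihood test over the 14334 genes with enough counts, at an adjusted p of 0.05 (Benjamini-Hochberg). The libraries are named here by their total counts, which were 31072338, 29296570 and 29331999 with vehicle and 27851677, 28894151 and 28641986 with TGFβ, and values per library follow that order. The fibroblast genes *Col1a1* and *Tcf21* were expressed at 19978 ± 1514 and 303 ± 3.54 CPM (SD, n = 3) in the vehicle libraries, and of 7 genes known to respond to TGFβ, 6 were higher with TGFβ and none lower by edgeR. Of 7 fibroblast markers, however, 5 were lower with TGFβ (median log2 fold change -0.52), among them *Tcf21*, and the part of that change in the levels of the 10 genes was not tested. Markers of other cells were also detected. Those of leukocytes summed to between 247 and 353 CPM with vehicle and 213 and 319 CPM with TGFβ, most of it *Lyz2*, and those of endothelial cells to between 406 and 626 CPM and between 377 and 512 CPM. The B cell gene *Cd79a* had no count in any vehicle library and at most 1 in a TGFβ library, and the cardiomyocyte gene *Myh6* had at most 16 counts. Cardiomyocyte markers summed to between 38.5 and 59.7 CPM with vehicle and 27.3 and 40.6 CPM with TGFβ, most of it *Tnnt2*, at 46.7 ± 10.5 and 34.0 ± 6.62 CPM (SD, n = 3 each). Of 5 markers of smooth muscle and pericytes, 1 was lower, *Notch3* (named after its values were seen), and the groups overlapped in all 4 markers of the mesothelium and all 3 of cardiomyocytes that were tested. In bulk RNA, fewer cells of a type and less RNA per cell cannot be told apart.

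All 10 genes were lower with TGFβ (edgeR, adjusted p between 0.00015 and 0.0325), and in each of them every TGFβ library lay below every vehicle library. Over all genes tested, 20.1% were called lower and 20.5% higher, and 26.1% had all TGFβ libraries below all vehicle libraries, 27.2% all above and 53.3% either. The median log2 fold change of the 10 genes was -0.58, beside -0.001 over all genes tested. Because the genes were chosen with earlier results of these data known, these contrasts are no independent test. Sizes differed: *Nfkbia* fell by 55.4%, *Tlr2* by 46.6%, *Relb*, *Tlr4*, *Tnfaip3* and *Tlr3* by 30.2% to 38.7%, *Nfkbiz*, *Nfkb1* and *Nfkb2* by 20.8% to 22.4%, and *Rela* by 12.2%. For a single gene, the two-sided exact permutation test of CPM gave p = 0.1 in all 10, the smallest p that 3 libraries against 3 allow. Each gene held between 462 and 3662 counts in a library, and a count of 462 carries a counting error of 4.65%.

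**Figure D1:**
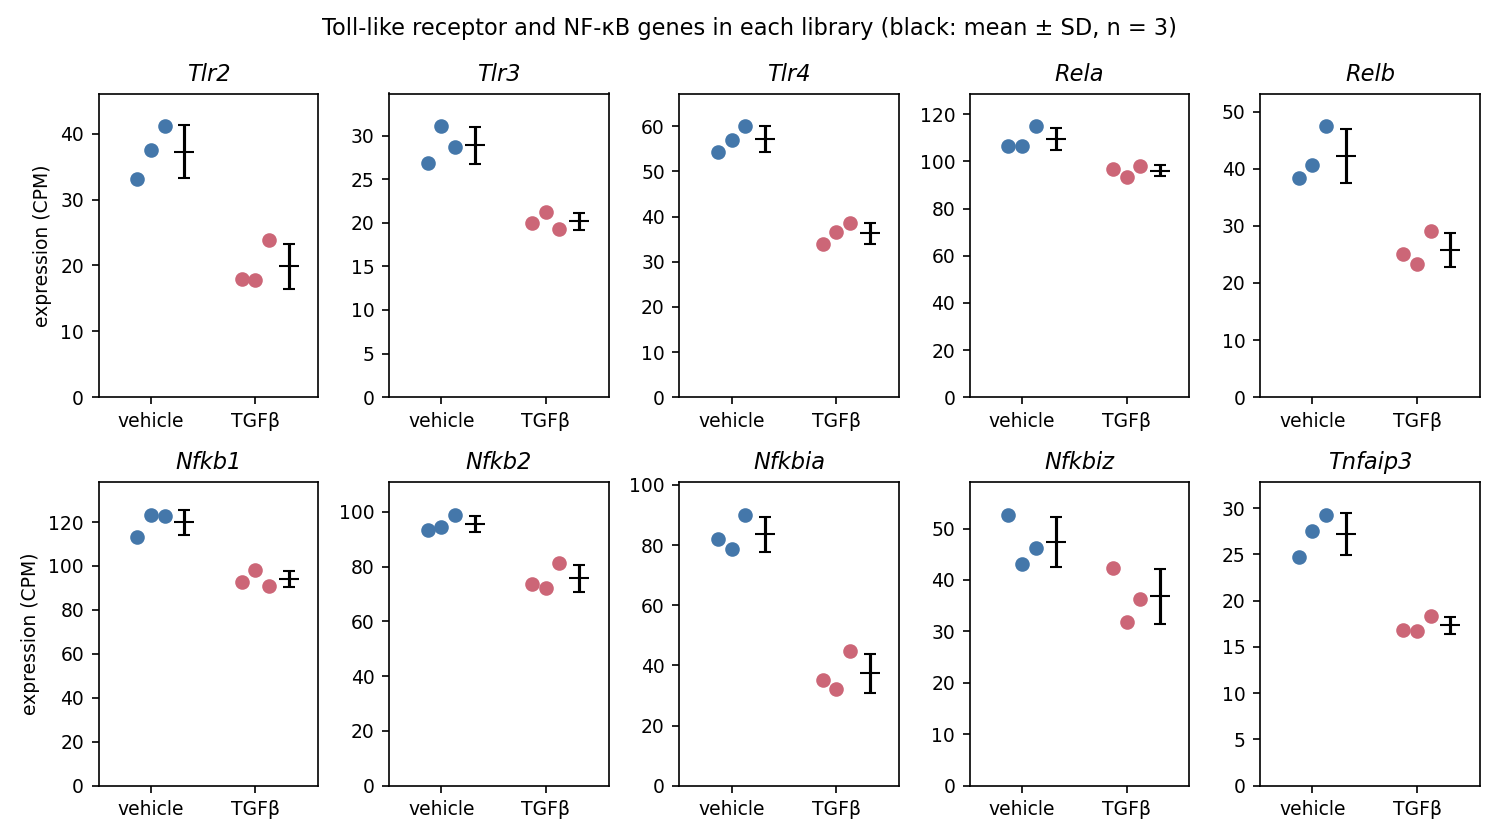
Expression of each of the 10 genes in CPM (vertical axes, each from 0), 1 point per library, with the mean and SD (n = 3) in black. Points run from left to right as the libraries of 31072338, 29296570 and 29331999 counts (vehicle, blue) and 27851677, 28894151 and 28641986 counts (TGFβ, red), an order that pairs no libraries. In every panel the red points lie below the blue ones, by the widest margin for *Nfkbia* and by a narrow one for *Nfkbiz*, where 42.3 CPM lies under 43.2 CPM.

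Since several of these genes are known targets of NF-κB, the bases in front of their transcription starts were searched for the κB consensus, the DNA motif that NF-κB dimers bind, on both strands. RefSeq promoters (GRCm38.p6) were matched for 6 of the 10 genes by symbol, in 9 entries, and *Tlr4*, *Nfkb1*, *Relb* and *Nfkbiz* had no entry there. The consensus was present within 250 bases before a start in 5 of the 6 genes, *Tlr2*, *Tlr3*, *Nfkb2*, *Nfkbia* and *Tnfaip3*, and not in *Rela*. Of all 27025 symbols with a promoter in the table, 4.46% held it before at least 1 start. Since known targets are among the 10 genes, this contrast is no independent result. Counted by entry, it was in 7 of the 9 promoters of these genes and in 3.9% of all 32851. The RefSeq starts are not always the outermost ones by the gene spans given with each gene below. Exons of GENCODE M21, counted for any gene on either strand, covered 159 of the 250 bases in *Tlr2* and 178 in *Tlr3*. They covered between 167 and 250 at the 3 starts of *Nfkb2* and 110 at the first start of *Tnfaip3*, but 0 in *Nfkbia*. A match describes letters in this window and is not a bound site. The promoter of *Nfkbia*, the gene that fell most, is shown whole, from 250 bases before its start at chr12:55492648-55492897 on the minus strand, written 5′ to 3′ along the gene with the match in capitals. The match spans the bases 29 to 20 before the start.
Nfkbia: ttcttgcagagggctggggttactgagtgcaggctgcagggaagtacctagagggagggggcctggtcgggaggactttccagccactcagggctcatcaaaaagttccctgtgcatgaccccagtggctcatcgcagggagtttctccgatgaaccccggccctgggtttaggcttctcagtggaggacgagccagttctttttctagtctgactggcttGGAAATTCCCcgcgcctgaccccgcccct

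For the other 4 genes, a window of at most 30 bases around a match is shown so that the motifs can be compared. Those of *Tlr3*, *Nfkb2* and *Tnfaip3* lie within the gene spans given with each gene, and that of *Tlr2* partly so. They are written again along the gene with the match in capitals. Their places are chr3:83841761-83841790 (minus strand) for *Tlr2*, chr8:45410572-45410601 (minus) for *Tlr3*, chr19:46304689-46304718 and chr19:46305695-46305724 (both plus, before the first and the last of its 3 starts) for *Nfkb2*, and chr10:19015516-19015545 and chr10:19015411-19015432 (both minus) for *Tnfaip3*. In *Tlr2* and in the first window of *Nfkb2* the capitals mark 11 bases, over which a match on each strand overlapped. For *Nfkb2*, the matches at bases 11 to 2 before its first start and 236 to 227 before its second are not shown. The bases after its first and second starts were not found near the 5′ end of a GENCODE M21 transcript of the gene, unlike those after its last.
Tlr2: aggacacctGGGGAATTCCCacacggagcc
Tlr3: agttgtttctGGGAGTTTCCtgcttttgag
Nfkb2: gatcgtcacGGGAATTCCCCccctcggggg
Nfkb2: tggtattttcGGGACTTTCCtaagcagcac
Tnfaip3: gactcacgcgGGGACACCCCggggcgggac
Tnfaip3: aatttccatcGGAAATCCCCct

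Of the receptors, *Tlr2* (ENSMUSG00000027995), lies on chromosome 3 (minus strand, 83836272 to 83841767 in GRCm38, the build named mm10, with GENCODE M21) and fell most. Its level was 33.1, 37.5 and 41.2 CPM in the vehicle libraries and 17.9, 17.9 and 23.8 CPM in the TGFβ libraries. The TGFβ library of 28641986 counts stood above the other two, and still 9.3 CPM under the lowest vehicle library. Means were 37.2 ± 4.04 and 19.9 ± 3.42 CPM (SD over 3 libraries each), and the log2 fold change was -0.91 with a standard error of 0.13 (edgeR adjusted p = 0.00105). Without that library it was -1.06.

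*Tlr4* (ENSMUSG00000039005, plus strand of chromosome 4, 66827584 to 66930284) is the receptor of lipopolysaccharide. It was at 54.4, 57.0 and 60.1 CPM with vehicle and 33.9, 36.7 and 38.5 CPM with TGFβ, so that the gap between the groups was wider than the spread within either. The fall from 57.2 ± 2.83 to 36.3 ± 2.33 CPM was a log2 fold change of -0.65 (standard error 0.06) with the smallest adjusted p of the 10 genes (edgeR, 0.00015). *Tlr3* (ENSMUSG00000031639, minus strand of chromosome 8, 45395665 to 45411080), the endosomal sensor, changed less, from 26.9, 31.1 and 28.7 CPM to 19.95, 21.2 and 19.3 CPM. Its groups were likewise apart, with a log2 fold change of -0.52 (standard error 0.07, edgeR adjusted p = 0.00082).

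Macrophages also express *Tlr2* and *Tlr4*, so the leukocyte markers are given beside them. Of the 9 that were tested, 1 was lower and 8 were not called, with a median log2 fold change of -0.05. The one called, the macrophage receptor *Mrc1* (named after its values were seen), was at 4.66 ± 0.727 CPM in the vehicle libraries and 2.22 ± 0.133 CPM in the TGFβ libraries. *Ptprc*, which encodes the leukocyte antigen CD45, was at 2.92 to 4.42 CPM with vehicle and 2.52 to 3.47 CPM with TGFβ, and *Adgre1*, which encodes the macrophage antigen F4/80, at 11.5 to 15.8 CPM and 12.2 to 16.6 CPM. Both ranges overlapped. The part of leukocytes in the fall of the receptors was not tested.

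Among the NF-κB subunits the order of the falls was *Relb*, then *Nfkb1* and *Nfkb2*, then *Rela*. *Relb* (ENSMUSG00000002983, minus strand of chromosome 7, 19606217 to 19629438), which encodes the subunit of the alternative pathway that pairs with p52, was at 38.4, 40.7 and 47.5 CPM with vehicle and 25.0, 23.3 and 29.1 CPM with TGFβ. The highest TGFβ library was 9.3 CPM short of the lowest vehicle library, a gap close to the range of 9.06 CPM among the vehicle libraries. The log2 fold change was -0.71 (standard error 0.10, edgeR adjusted p = 0.00132).

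*Nfkb1* (ENSMUSG00000028163, minus strand of chromosome 3, 135584655 to 135691547) encodes p105, the precursor of p50. It was at 113, 123 and 123 CPM with vehicle and 92.7, 98.2 and 91.1 CPM with TGFβ, a log2 fold change of -0.35 (standard error 0.05, edgeR adjusted p = 0.00116). *Nfkb2* (ENSMUSG00000025225, plus strand of chromosome 19, 46304320 to 46312385) encodes p100, the precursor of p52, and was at 93.5, 94.4 and 99.0 CPM with vehicle and 73.8, 72.0 and 81.3 CPM with TGFβ. Its log2 fold change of -0.34 (standard error 0.05, edgeR adjusted p = 0.00203) was close to that of *Nfkb1*.

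*Rela* (ENSMUSG00000024927, plus strand of chromosome 19, 5637483 to 5648130), which encodes the transactivating subunit p65, changed least. Vehicle libraries were at 106.7, 106.7 and 115 CPM and TGFβ libraries at 96.7, 93.4 and 98.2 CPM. Although the groups did not overlap, the gap of 8.5 CPM between them was close to the range of 8.3 CPM among the vehicle libraries. The log2 fold change was -0.19 (standard error 0.04, edgeR adjusted p = 0.0125), and the call was lost without the TGFβ library of 28894151 counts (edgeR adjusted p = 0.0509).

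The regulators held both the largest fall and the least certain one. *Nfkbia* (ENSMUSG00000021025, minus strand of chromosome 12, 55489410 to 55492647) encodes IκBα, which holds NF-κB dimers in the cytoplasm. Its level was 82.0, 78.8 and 90.2 CPM with vehicle and 35.1, 32.2 and 44.6 CPM with TGFβ. The means of 83.6 ± 5.85 and 37.3 ± 6.49 CPM (SD, n = 3 each) gave a log2 fold change of -1.16 (standard error 0.11, edgeR adjusted p = 0.000205). As for *Tlr2*, the TGFβ library of 28641986 counts was the highest of its group, and without it the log2 fold change was -1.32.

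*Tnfaip3* (ENSMUSG00000019850, minus strand of chromosome 10, 19000910 to 19015657) encodes A20, a ubiquitin-editing enzyme that ends signals from Toll-like and TNF receptors. It was at 24.8, 27.5 and 29.3 CPM with vehicle and 16.9, 16.8 and 18.4 CPM with TGFβ, with the TGFβ libraries within 1.6 CPM of each other. The log2 fold change was -0.65 (standard error 0.08, edgeR adjusted p = 0.000463). *Nfkbiz* (ENSMUSG00000035356, minus strand of chromosome 16, 55811375 to 55838899), which encodes the nuclear protein IκBζ, a cofactor for late NF-κB targets, varied more between libraries. Its vehicle libraries were at 52.7, 43.2 and 46.2 CPM and its TGFβ libraries at 42.3, 31.8 and 36.3 CPM, so that the highest TGFβ library came close to the lowest vehicle library. The log2 fold change was -0.36 (standard error 0.11, edgeR adjusted p = 0.0325). That call was lost in 4 of the 6 fits that left out 1 library: without the vehicle library of 31072338 (edgeR adjusted p = 0.0990) or 29331999 counts (0.0573), and without the TGFβ library of 28894151 (0.0842) or 28641986 counts (0.0674).

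**Figure D2:**
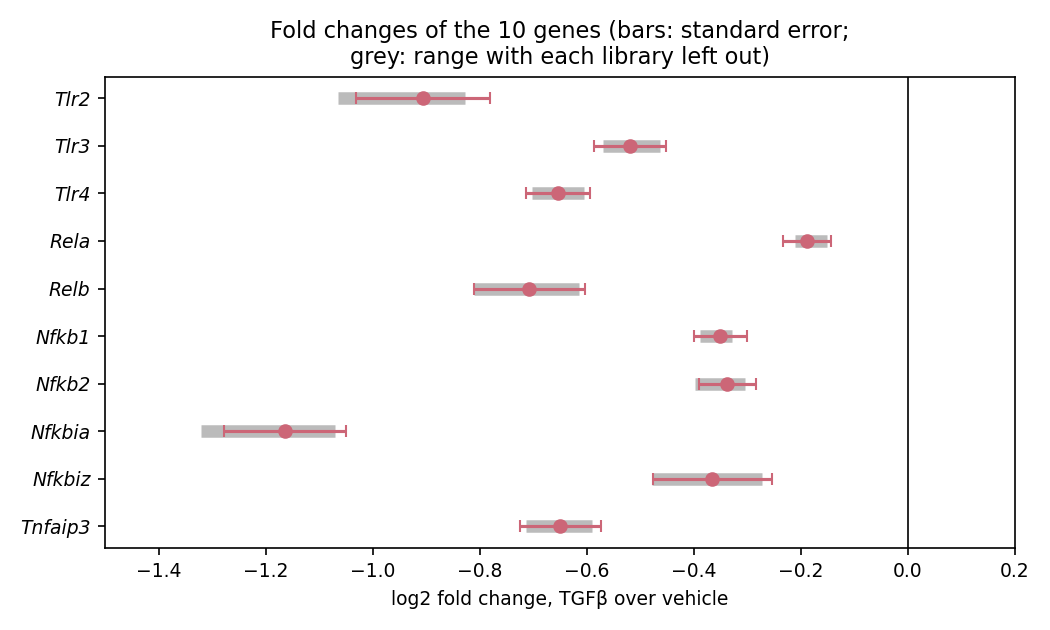
Log2 fold change of TGFβ over vehicle (horizontal axis) for the 10 genes, as points with the standard error from edgeR, and in grey the range of the value when each library was left out in turn. All points and all grey ranges lie below 0, from -1.16 for *Nfkbia* to -0.19 for *Rela*.

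All 10 genes are annotated as protein-coding. Of the 75-base windows of their longest transcripts, at most 0.27% (*Nfkb1*) occur in transcripts of other genes, and genes that overlap them held at most 1.25% as many counts (*Nfkb2*, 2 genes on the other strand).

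In most of the 10 genes the same library was the highest of its group. With TGFβ, the library of 28641986 counts was the highest of its group in 7 of the 10 genes, whereas it was highest in 36.9% of all genes tested. With vehicle, the library of 29331999 counts was the highest in 7 of 10, against 34.8% of all genes. These 2 libraries also held the most endothelial marker RNA of their groups, 626 CPM beside 406 and 465 CPM with vehicle and 512 CPM beside 377 and 422 CPM with TGFβ. The same was true of the summed leukocyte markers, at 353 CPM beside 247 and 257 CPM and at 319 CPM beside 213 and 228 CPM, most of it *Lyz2*. Among the leukocyte markers tested, only *Ptprc* was not highest in both, at 2.98 CPM beside 2.52 and 3.47 CPM with TGFβ. Among the endothelial markers only *Tek*, named after its values were seen, went the other way and was lowest in these 2 libraries. It was at 74.5 CPM beside 79.6 and 92.7 CPM with vehicle, and at 83.7 CPM beside 94.7 and 114.9 CPM with TGFβ. The part of endothelial cells and leukocytes in the levels of the 10 genes was not tested. In all 6 endothelial markers the vehicle and TGFβ libraries overlapped, and their median log2 fold change was -0.20.

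To compare genes with each other, levels were taken per kilobase of exon (RPKM). In vehicle libraries *Nfkbia* had the highest level, at 52.0 ± 3.64 RPKM (SD, n = 3), followed by *Rela* at 35.6 ± 1.56 RPKM and *Nfkb2* at 20.9 ± 0.651 RPKM, with no overlap between these neighbours. *Tlr2*, *Relb*, *Tlr4*, *Nfkb1* and *Nfkbiz* formed a run from 12.4 ± 1.34 down to 9.44 ± 0.973 RPKM in which every neighbour overlapped the next. *Tlr3* at 5.55 ± 0.404 RPKM and *Tnfaip3* at 3.76 ± 0.318 RPKM were lowest and apart. In TGFβ libraries *Rela* was the highest, at 31.3 ± 0.802 RPKM, and *Nfkbia* came after it at 23.2 ± 4.03 RPKM. *Tlr3* and *Tnfaip3* stayed the lowest, at 3.87 ± 0.187 and 2.40 ± 0.125 RPKM. With the longest transcript in place of all exons as the length, the order of *Nfkbia* and *Rela* was the same in both groups, whereas *Nfkb1*, whose exons span 12061 bases in all and 4149 in its longest transcript, rose from 9.93 to 28.9 RPKM with vehicle.

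The ratios between genes within a library restate the unequal falls given above. The IκBα transcript exceeded that of p65 in each vehicle library, at 1.465, 1.41 and 1.496 RPKM of *Nfkbia* per RPKM of *Rela*, and was below it in each TGFβ library, at 0.692, 0.659 and 0.867. Relative to *Rela*, *Tnfaip3* went from 0.105 ± 0.00604 to 0.0767 ± 0.00269 and *Relb* from 0.304 ± 0.0211 to 0.212 ± 0.0196 (SD, n = 3 each). The ratio of *Tlr2* to *Tlr4* was 1.121, 1.21 and 1.26 with vehicle and 0.974, 0.897 and 1.14 with TGFβ, where 1 library overlapped the vehicle group. The ratio of *Nfkb2* to *Nfkb1* was 2.10 ± 0.0800 with vehicle and 2.12 ± 0.210 with TGFβ, and its groups overlapped. The size of this ratio depends on the length used, here that of all exons. With the longest transcript as the length, *Nfkb2* was below *Nfkb1*, at 24.9 and 28.9 RPKM with vehicle and 19.7 and 22.7 RPKM with TGFβ. Of 9 such ratios, chosen with the falls known, 6 had groups that did not overlap (two-sided exact permutation p = 0.1, the smallest possible, and 0.15 adjusted over the 9). Among single genes tested, the groups did not overlap in 53.3%.

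**Figure D3:**
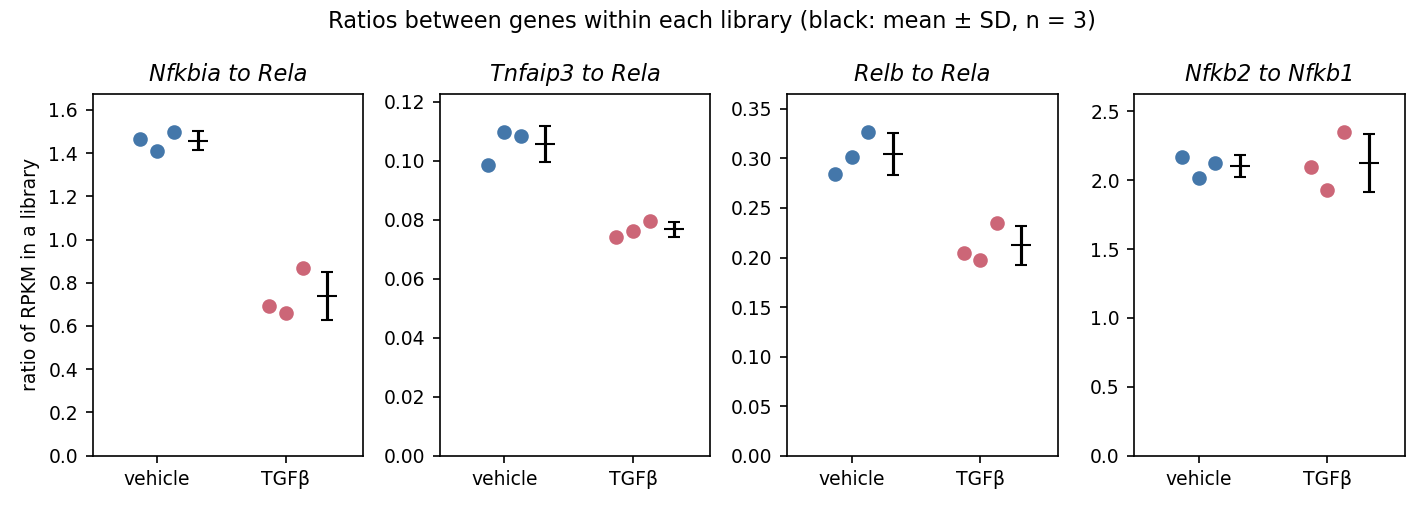
Ratio of the RPKM of 2 genes within a library (vertical axes, each from 0), 1 point per library, with the mean and SD (n = 3) in black. RPKM is per kilobase of all exons, and with the longest transcript as the length *Nfkb2* was below *Nfkb1* in both groups. The ratio of *Nfkbia* to *Rela* lies between 1.41 and 1.496 in the vehicle libraries (blue) and between 0.659 and 0.867 in the TGFβ libraries (red), while that of *Nfkb2* to *Nfkb1* overlaps between the groups.

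The rest of the pathway was described with lists of genes from receptor to target. The counts called in each list stand beside 20.1% lower and 20.5% higher over all genes tested. Of 6 other Toll-like receptors with enough counts, none was higher and 1 lower, *Tlr1*, the partner of Tlr2, named after its values were seen and found at only 0.856 ± 0.159 CPM with vehicle and 0.356 ± 0.121 CPM with TGFβ. *Tlr6*, the alternative partner of Tlr2, was at 3.55 ± 0.404 and 4.01 ± 0.661 CPM, with overlapping groups. The proteins that help receptors bind their ligands or mature formed a list of 9, of which 7 were lower and 1 higher, with a median log2 fold change of -0.57. *Lbp*, which encodes the lipopolysaccharide-binding protein, had the largest fall of the list, from 112 ± 29.0 to 27.5 ± 8.39 CPM (log2 fold change -2.02, standard error 0.24, edgeR adjusted p = 0.000542). *Cd36*, a co-receptor of Tlr2, fell from 31.2 ± 2.37 to 17.9 ± 1.62 CPM and *Cd14*, which hands lipopolysaccharide to Tlr4, from 13.0 ± 4.10 to 7.75 ± 1.91 CPM (edgeR adjusted p = 0.0436). The call of *Cd14* was lost with limma-voom (adjusted p = 0.0558) and with edgeR without the vehicle library of 29296570 or 29331999 counts or the TGFβ library of 27851677 or 28894151 counts (adjusted p between 0.0553 and 0.135). The chaperone *Hsp90b1*, which folds Toll-like receptors among many other proteins, rose from 969 ± 25.3 to 1335 ± 53.1 CPM.

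Of 15 adaptors and enzymes at the receptor, 5 were lower, 2 higher and 8 not called, with a median log2 fold change of -0.09. Over all genes tested, 20.1% were called lower, 20.5% higher and 40.7% either. *Myd88*, the adaptor shared by most Toll-like receptors, fell from 52.1 ± 2.78 to 31.3 ± 2.45 CPM (log2 fold change -0.74), and *Ticam1*, which encodes TRIF, the adaptor of Tlr3, from 23.4 ± 1.38 to 18.7 ± 0.574 CPM (-0.32). Of the 4 IRAK kinases, 1 fell, 1 rose and 2 were not called. *Irak3*, an IRAK that restrains the signal, fell from 34.8 ± 1.36 to 18.6 ± 1.37 CPM (log2 fold change -0.90), while *Irak2* rose from 20.3 ± 1.46 to 31.2 ± 3.25 CPM (0.62). *Irak1* was at 84.0 ± 0.309 and 79.5 ± 2.96 CPM and *Irak4* at 22.8 ± 0.451 and 21.4 ± 1.36 CPM, neither called and both named after their values were seen. The ubiquitin-conjugating enzyme *Ube2n* had a log2 fold change of 0.15, and its call was lost under 8 of the 12 alternatives (adjusted p = 0.0305 by edgeR as given here, and up to 0.132, by DESeq2, under an alternative). *Peli2* and *Peli3*, ubiquitin ligases of the Pellino family named after their values were seen, were the other 2 that fell.

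Of 14 kinases and ligase subunits downstream of the receptors, 5 were lower and 2 higher, with a median of -0.09. The shares over all genes tested were 20.1% lower, 20.5% higher and 40.7% either. Both cellular inhibitors of apoptosis, ubiquitin ligases that act in NF-κB signaling, were lower: *Birc2* fell from 51.7 ± 1.00 to 24.3 ± 1.82 CPM (log2 fold change -1.09, standard error 0.06, edgeR adjusted p = 1.36e-05) and *Birc3* from 30.6 ± 3.77 to 17.1 ± 1.26 CPM (-0.84). *Ikbke*, which encodes IKKε, fell from 22.2 ± 1.83 to 13.2 ± 0.571 CPM. The subunits of the central IκB kinase did not move together, since *Chuk* (IKKα) rose from 41.9 ± 0.482 to 48.7 ± 1.72 CPM, *Ikbkb* (IKKβ) fell from 48.7 ± 0.384 to 41.3 ± 0.314 CPM, and *Ikbkg* (NEMO) was at 56.8 ± 2.24 and 58.7 ± 1.60 CPM. *Map3k7*, which encodes the kinase TAK1 upstream of it, rose from 91.8 ± 0.723 to 107 ± 2.31 CPM. *Ikbkb*, *Ikbkg* and *Traf2*, the last of the 5 that fell, were named after their values were seen.

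Of the 5 other Rel and IκB genes, 3 were lower and none higher. *Bcl3*, a nuclear IκB protein, fell from 35.8 ± 1.39 to 17.2 ± 3.38 CPM (log2 fold change -1.05) and *Nfkbie*, which encodes IκBε, from 25.4 ± 2.83 to 12.5 ± 1.62 CPM (-1.03). *Nfkbib*, which encodes IκBβ, had a smaller log2 fold change of -0.33, which missed the threshold without the vehicle library of 31072338 or 29331999 counts or the TGFβ library of 27851677 or 28894151 counts (edgeR adjusted p between 0.0585 and 0.0862). *Rel* itself was at 9.69 ± 0.657 and 9.11 ± 0.404 CPM, a difference within the spread of the libraries. Of 13 other inhibitors of the pathway, 6 were lower and 1 higher (median -0.09), beside 20.1% and 20.5% over all genes tested. Among those with at least 5 CPM the largest fall was that of *Zc3h12a*, which encodes an RNase that degrades cytokine transcripts, from 49.6 ± 1.99 to 21.8 ± 3.41 CPM (log2 fold change -1.19, standard error 0.10, edgeR adjusted p = 9.94e-05). *Tnip1*, a partner of A20, fell from 130.2 ± 18.0 to 78.1 ± 5.37 CPM (-0.74). The single gene that rose, *Rnf11*, encodes a ubiquitin ligase of the A20 complex and went from 164 ± 6.38 to 243 ± 9.66 CPM (0.57). *Tnip2* had a log2 fold change of -0.24, and it missed the threshold without the vehicle library of 29296570 or 29331999 counts or the TGFβ library of 27851677 or 28894151 counts (edgeR adjusted p between 0.0584 and 0.0759). Of 5 interferon regulatory factors, *Irf1* (log2 fold change -0.75) and *Irf7* (-0.97) were lower, and *Irf3*, the factor that Tlr3 signaling activates by phosphorylation, was at 27.6 ± 0.914 and 28.2 ± 1.32 CPM.

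**Figure D4:**
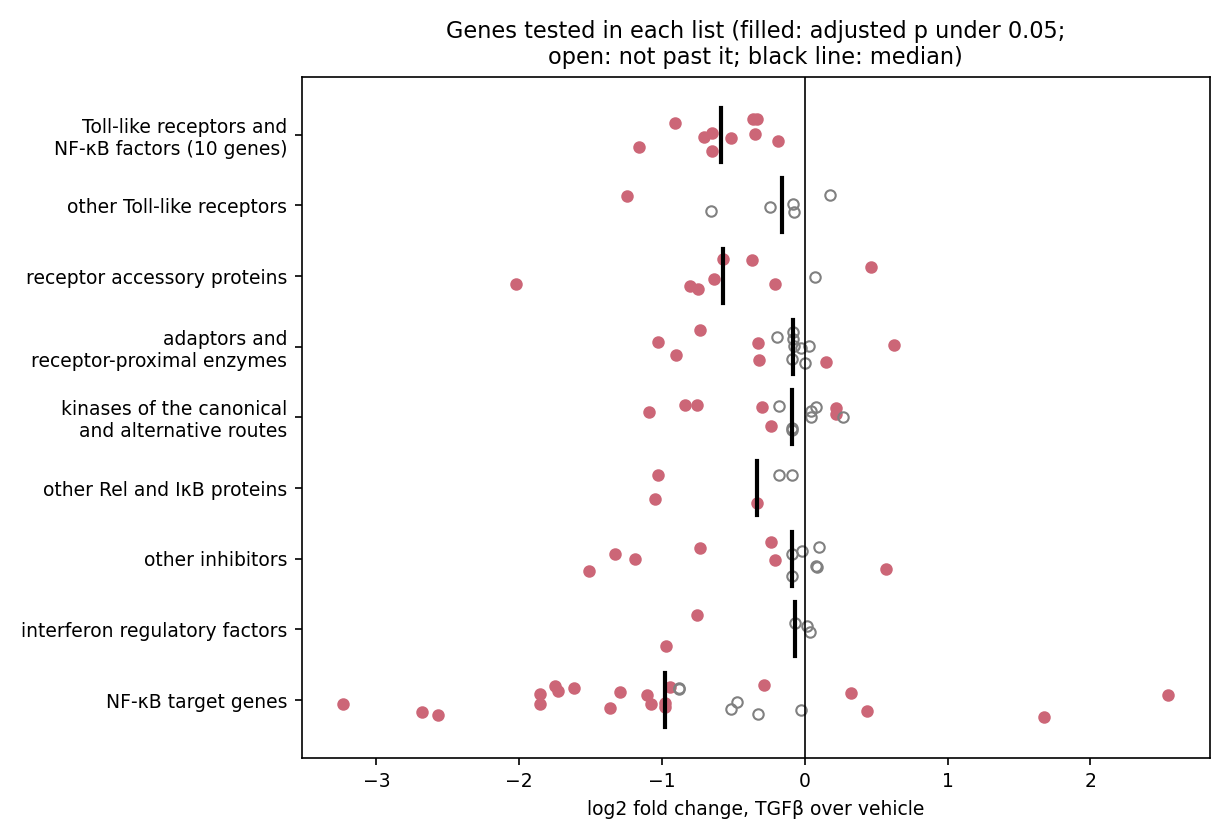
Log2 fold change of TGFβ over vehicle (horizontal axis) for each gene tested in the 10-gene group and the lists of the pathway, filled where the adjusted p was under 0.05 and open where it was not, with the median as a black line. The 10 genes and the target genes lie mostly to the left of 0, with medians of -0.58 and -0.98, while adaptors and kinases have medians of -0.09 and points on both sides.

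The last list held 30 genes commonly induced by NF-κB, chosen with earlier results of these data known, of which 26 were tested. Of these, 16 were lower and 4 higher, beside 20.1% and 20.5% over all genes tested. The median log2 fold change of the 26 was -0.98. Of the 16, 3 (*Lcn2*, *Saa3* and *Mmp9*, named after their values were seen) had overlapping groups. Among targets with at least 5 CPM, neutrophil chemokines fell most, *Cxcl5* from 518 ± 83.1 to 55.1 ± 16.8 CPM (log2 fold change -3.23) and *Cxcl1* from 80.8 ± 4.87 to 13.6 ± 2.58 CPM (-2.57, standard error 0.12, edgeR adjusted p = 8.73e-06). *Ptx3*, which encodes a pentraxin of the innate response, fell from 572 ± 142 to 159 ± 10.95 CPM (-1.85). Other targets moved the opposite way. *Ptgs2*, which encodes cyclooxygenase-2, rose from 10.0 ± 2.94 to 58.5 ± 19.9 CPM (log2 fold change 2.55), and *Lif*, a cytokine of the IL-6 family, from 26.9 ± 3.96 to 86.0 ± 13.6 CPM (1.67). *Il6* rose from 38.1 ± 2.70 to 51.6 ± 11.1 CPM (0.44, edgeR adjusted p = 0.0392), a call that was lost with upper quartile scaling (0.0508) and without any 1 library other than the TGFβ library of 28894151 counts (edgeR adjusted p between 0.0623 and 0.117). The fourth gene that rose, *Ier3*, was named after its values were seen and had a log2 fold change of 0.32. The number of targets called higher was 2, beside 4, without the vehicle library of 29296570 counts or the TGFβ library of 27851677 counts. The κB consensus was present before a start of 9 of the 22 target genes with a promoter in the RefSeq table. Over all symbols with a promoter there, the share was 4.46%. The list was made of genes known to be induced by NF-κB, so this contrast is no independent result. Of the 9, *Cxcl1*, *Cxcl2*, *Ccl20*, *Sod2* and *Bcl2l1* were lower with TGFβ, *Il6* and *Ier3* were higher, and *Csf1* and *Cxcl10* were not called.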

How the data were processed

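By the study's methods, libraries of poly(A) RNA kept the strand and were read from 1 end over 75 bases. The submitters' processing notes name the build mm10 and DESeq2. The aligner, the counting tool, the annotation and the use of strand are not given in the sources used here. The authors deposited whole-number counts per gene and library without normalization, beside a mean of normalized counts and their own DESeq2 comparison, which were not used. The 6 count columns name the group but no replicate, and 0 columns of per-sample values were left unused.

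TMM factors, filterByExpr and the quasi-likelihood test came from edgeR 4.0.16 in R 4.3.3, with no covariate, over 14334 genes. The standard error is the log2 fold change over the square root of F. The biological coefficient of variation was 7.97%. RPKM is CPM per kilobase of the union of exons in GENCODE M21. Alternatives were DESeq2 1.42.0, limma-voom (limma 3.58.1), other scalings, other filters and each library left out. The edgeR, limma-voom and DESeq2 fits, with filterByExpr, were tested on simulated counts, and the other steps were not. In the simulation a far smaller share of genes changed than the 40.7% called here. The changes simulated were all larger than those of *Nfkbiz*, *Nfkb1*, *Nfkb2* and *Rela*, so calls of that size were not tested.

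The 10 genes and the lists were chosen with earlier results of these data known. From each list the text names called genes with at least 5 CPM and groups apart, at most 3 with the largest rise and 3 with the largest fall, and says where others were chosen after their values were seen. Outside this rule, *Tlr6*, *Rel* and *Irf3*, which were not called, and all target genes with the κB consensus are also named.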

Additional observations from a re-analysis of the deposited data

How the results depend on the processing

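All 10 genes were lower and 0 higher with DESeq2's size factors, upper quartile scaling, DESeq2, limma-voom, no filter on low counts and a filter of 1 CPM in 3 libraries. With each library left out in turn, between 8 and 10 were lower and 0 higher, and each of the 10 genes kept its direction. The calls lost were those of *Nfkbiz* and *Rela*, for which the values are given above, and leaving out the TGFβ library of 28894151 counts lost both. No alternative moved the median log2 fold change of all genes by more than 0.021. The number of genes called lower over all genes tested was between 2246, without the vehicle library of 29296570 counts, and 3076, with upper quartile scaling, beside 2884. At the level of the lists, 14 of the counts of genes higher or lower moved by more than 1.5 times, each of them between 0 and 4 genes, mostly the 2 adaptors that rose, of which *Irak2* remained under each alternative. Taking the longest transcript as length raised the vehicle RPKM of 8 of the 10 genes by more than 1 SD. No paired analysis was possible because the count columns carry no replicate numbers, so every call, lost ones included, comes from a fit without pairing. Counting error was at most 4.65% for any of the 10 genes, and precision also rests on only 3 libraries per group.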

Other observations

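The genes whose pattern over the 6 libraries was nearest to that of *Nfkbia*, among 10372 others with a mean of at least 5 CPM, were *Pdlim3*, *Zc3h12a* and *Rffl*, with root-mean-square differences of 0.049, 0.059 and 0.074 on the log2 scale after centring each gene on its mean. *Pdlim3*, which encodes a PDZ and LIM protein of the actin cytoskeleton, had a mean of 174 ± 14.6 CPM in the vehicle libraries and of 78.9 ± 9.33 CPM in those with TGFβ (SD over 3 libraries each). *Zc3h12a* is the inhibitor described above. *Rffl*, which encodes a ubiquitin ligase, was at 19.1 ± 1.79 CPM and 9.20 ± 1.32 CPM. This measure describes likeness in these libraries and was not tested. No gene of the group of 10 rose, so the same was not done for a rise.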
